A study of Mus musculus with 16 samples.

Results

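The miR-26 family consists here of 5 mature microRNAs made from 3 hairpins: miR-26a-5p, which both Mir26a-1 and Mir26a-2 produce, miR-26b-5p from Mir26b, and the opposite arms miR-26a-1-3p, miR-26a-2-3p and miR-26b-3p. They were chosen by name from the 2274 microRNA names counted in this series. The data are 16 small RNA libraries from C2C12, a line of mouse myoblasts that form myotubes after serum withdrawal; the growth protocol in the labels calls them PAX7 NEG. The 4 groups of 4 libraries were control cells and triple-knockout cells (tKO), each in growth medium (GM, 20% fetal bovine serum, about 80% confluent) and after 3 days of differentiation in 2% horse serum (DM3). In tKO cells miR-1a-1, miR-1a-2 and miR-206 are deleted, and controls are labelled wild type. Each group held 2 lines (control populations 1 and 2, or tKO clones C1 and C2) with 2 biological replicates per line, so a p-value over 4 libraries measures the spread among 2 lines and their replicates. The tKO lines are named as clones, so the knockout and the clone cannot be told apart.

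A microRNA hairpin is cut by Drosha and Dicer into a short duplex. One strand, the guide, is loaded into Argonaute and pairs through its seed with messenger RNAs, whereas the other, the passenger, is mostly degraded. miR-26a and miR-26b are broadly expressed guides from the 5' arms. In myoblasts miR-26a is known to target Ezh2, the histone methyltransferase of the Polycomb complex, and to favour differentiation. The 3 hairpins lie within the CTDSP phosphatase genes, and the terminal uridyltransferase Zcchc11 is known to add uridines to the 3' end of miR-26.

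The mature sequences are shown first because the counts depend on how closely the members resemble each other. They come from RefSeq on GRCm38.p6, all 5 members matched, and capitals mark the seed, bases 2 to 8 from the 5' end.
miR-26a-5p: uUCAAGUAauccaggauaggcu
miR-26b-5p: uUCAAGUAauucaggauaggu
miR-26a-1-3p: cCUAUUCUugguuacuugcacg
miR-26a-2-3p: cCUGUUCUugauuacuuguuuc
miR-26b-3p: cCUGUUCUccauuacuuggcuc
miR-26a-5p and miR-26b-5p share the seed UCAAGUA, which none of the other names among 1679 mature names in the RefSeq table has. Over the 21 bases compared they differ at C11U and C21U, where the miR-26a-5p base comes first and positions are counted from its 5' end. Among the passengers, miR-26a-2-3p and miR-26b-3p share the seed CUGUUCU with each other and with miR-6932-3p and miR-7039-3p, and they differ at U9C, G10C, U19G and U20C. miR-26a-1-3p differs from miR-26a-2-3p within the seed, at A4G, and has the seed CUAUUCU alone.

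The hairpins show where the arms lie. They also come from RefSeq, on the plus strand of GRCm38.p6, with both arms in capitals.
Mir26a-1: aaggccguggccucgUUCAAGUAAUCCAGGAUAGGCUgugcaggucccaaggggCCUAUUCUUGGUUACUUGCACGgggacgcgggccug
Mir26a-2: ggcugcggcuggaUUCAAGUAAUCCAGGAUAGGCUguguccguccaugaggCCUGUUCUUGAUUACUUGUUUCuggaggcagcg
Mir26b: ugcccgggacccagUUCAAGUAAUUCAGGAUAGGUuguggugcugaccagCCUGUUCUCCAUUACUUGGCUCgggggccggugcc
Mir26a-1 spans chr9:119031796-119031885 and lies in introns of both coding transcripts of Ctdspl in the GENCODE M21 annotation. Mir26a-2 spans chr10:126995530-126995613 and lies in an intron of 1 of the 2 coding transcripts of Ctdsp2, and its last base is also the first base of an exon of the other. Mir26b spans chr1:74394310-74394394 and lies in an intron of 1 of the 2 coding transcripts of Ctdsp1. Both miR-26a hairpins have the same first 25 bases from the mature start, so reads of miR-26a-5p do not tell which hairpin made them.

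The libraries held 112792 to 6543570 listed reads, and 3 reads, the limit that a count of 0 allows, correspond to between 0.458 and 26.6 CPM (counts scaled to 1e6 listed reads). The library of tKO clone C1, DM3, replicate 1 stands apart: it is the smallest, 32.3% of its reads had a mismatch to the microRNA they are listed under, and its names miR-6236 and miR-6240 together took 35.4%. In the other 15 libraries, reads with a mismatch made up 10.2% to 21.2%, and control DM3 lay above control GM: 12.9% to 21.2% against 10.7% to 12.2% for reads with a mismatch, 4.76% to 12.8% against 1.88% to 2.95% for reads under 18 nt, and 4.85% to 17.1% against 0.555% to 1.60% for miR-6236 and miR-6240. The summed level of the muscle microRNAs miR-206-3p, miR-1a-3p, miR-133a-3p and miR-133b-3p lay between 849 and 1490 CPM in GM controls and between 7.27 and 20.5 CPM in GM tKO libraries. In DM3 controls it lay between 23024 and 59598 CPM, and in DM3 tKO libraries between 98.9 and 973 CPM. The targeted miR-206-3p was lower in tKO with a log2 fold change of -7.52 in GM (edgeR adjusted p = 5.76e-05) and -11.85 in DM3 (edgeR adjusted p = 1.46e-06). The deleted miR-1a-3p had -2.08 in GM, where it did not pass (edgeR adjusted p = 0.225), and -4.60 in DM3 (edgeR adjusted p = 0.000341). A list of 8 microRNAs of other cells summed to 6.79 to 108 CPM over the 16 libraries, of which miR-142a-5p (blood) and miR-124-3p (neurons) were at 0 in every library. miR-451a (red blood cells) was at 0 in every DM3 library but not in every GM library.

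In all libraries together the 5 names held 1193858 reads, of which miR-26a-5p took 92.3% and miR-26b-5p 7.52%. The passengers were scarce, with 1423 reads of miR-26a-2-3p, 1083 of miR-26b-3p and 68 of miR-26a-1-3p. miR-26a-5p ranked between 6 and 23 among all names of a library, and miR-26b-5p between 48 and 100. The family held 1.36% to 3.75% of the listed reads of a library.

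In bulk RNA, fewer cells with a microRNA and less of it per cell cannot be told apart. miR-26a-5p, the main guide, was abundant in every library and its 4 groups overlapped. In control GM it measured 18723 CPM in population 1 replicate 1, 30237 in population 1 replicate 2, 25682 in population 2 replicate 1 and 29317 in population 2 replicate 2 (25989.7 ± 5229, SD, n = 4). In tKO GM it measured 20405 and 19669 CPM in clone C1 and 23644 and 29566 in clone C2, in the order of the replicates (23321 ± 4507, SD, n = 4). All 4 tKO values lie within the range of the control values. In control DM3 it measured 12526 and 18929.6 CPM in population 1 and 20915 and 31249 in population 2 (20905 ± 7770, SD, n = 4). In tKO DM3 it measured 17105 and 32145 CPM in clone C1 and 25189 and 34685 in clone C2 (27281 ± 7882, SD, n = 4). In the least deep library, with 1929 reads of miR-26a-5p, its share of 1.71% has a 95% Wilson interval of 1.64% to 1.79%, which covers counting error only. The spread between libraries of a group is wider than that interval.

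**Figure D1:**
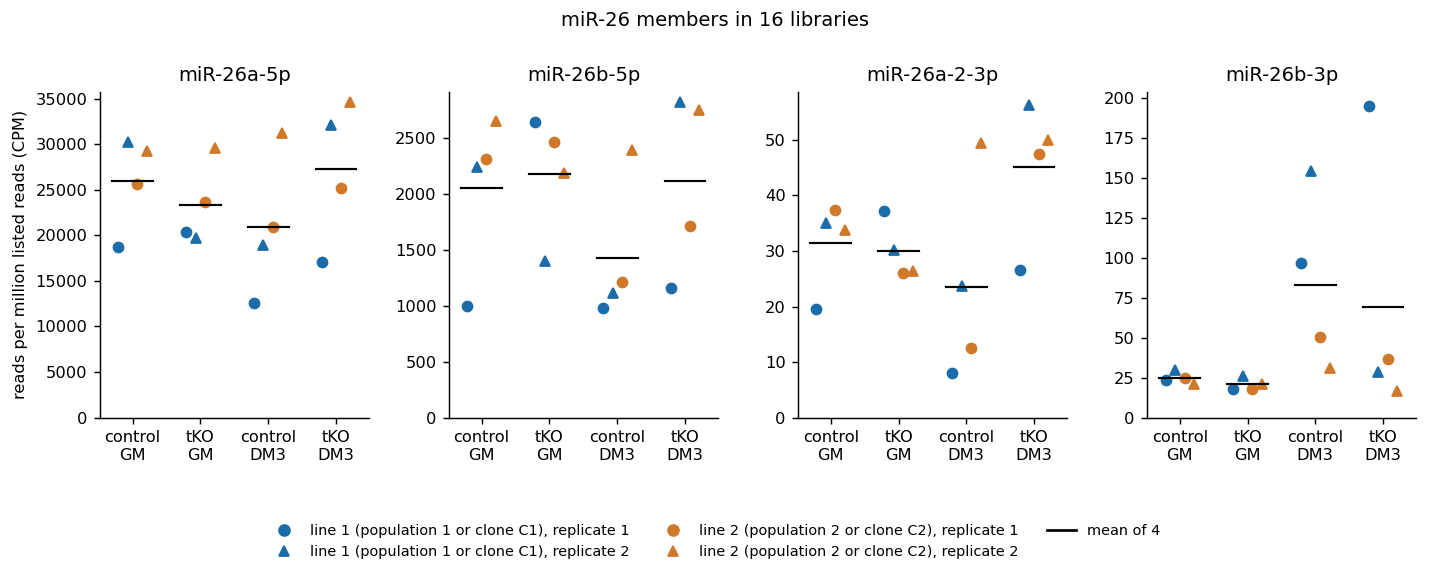
Level in CPM of 4 members in each library, by group; colours mark the line, shapes the replicate, and black lines the mean of 4 libraries. The scales differ: miR-26a-5p lies between 12526 and 34685 CPM, and the groups overlap for it, for miR-26b-5p and for miR-26a-2-3p.

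miR-26b-5p, the second guide with the same seed, was lower than miR-26a-5p in every library. In control GM it measured 997 and 2238 CPM in population 1 and 2314 and 2654 in population 2 (2051 ± 726, SD, n = 4). In tKO GM it measured 2648 and 1399.8 CPM in clone C1 and 2470.3 and 2186 in clone C2 (2176 ± 551, SD, n = 4). All 4 tKO values lie within the control range. In control DM3 it measured 984 and 1112 CPM in population 1 and 1217 and 2397 in population 2 (1427 ± 653, SD, n = 4). In tKO DM3 it measured 1158 and 2825 CPM in clone C1 and 1718 and 2751 in clone C2 (2113 ± 813, SD, n = 4). Control population 2 replicate 2 was far above the other control DM3 libraries, and the groups overlapped.

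The ratio of the guides is a value within a library and needs no scaling between libraries. The mean log2 ratio of miR-26a-5p to miR-26b-5p was 3.73 ± 0.36 in control GM, 3.44 ± 0.41 in tKO GM, 3.89 ± 0.24 in control DM3 and 3.73 ± 0.18 in tKO DM3 (SD, n = 4 each). Over the libraries it ran from 2.95 in tKO clone C1 GM replicate 1 to 4.23 in control population 1 GM replicate 1. No contrast of this ratio passed: the smallest p was 0.286 (two-sided exact permutation test, adjusted p = 0.440 over 20 tests). With 4 libraries against 4 the smallest p this test can give is 0.0286.

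The passenger of Mir26a-2 is scarce, and its counts limit what can be seen. miR-26a-2-3p measured 19.5, 34.9999, 37.4 and 33.8 CPM in GM controls and 37.2, 30.1, 26.1 and 26.4 CPM in GM tKO libraries, each in the order population 1 or clone C1 replicates 1 and 2, then population 2 or clone C2. In that order the DM3 controls measured 8.07, 23.7, 12.6 and 49.5 CPM, and the DM3 tKO libraries 26.6, 56.3, 47.5 and 49.97 CPM. The groups overlapped, and the lowest value stood on 2 reads. The low end of these values rests on few reads, since 3 libraries held under 10 reads of miR-26a-2-3p. miR-26a-1-3p, the passenger of the other miR-26a hairpin, did not pass the filter on low counts and was not tested: it had 0 reads in 2 libraries and under 10 reads in 14. Its highest count was 19 reads, in control population 2 GM replicate 2. Of the passengers that only 1 miR-26a hairpin can give, the Mir26a-2 arm had 1032 reads at the mature start and the Mir26a-1 arm 53, counted without mismatches, at 16 nt or longer and within 3 bases of the mature first base.

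miR-26b-3p, the passenger of Mir26b, was the member whose listed reads differed most between media. In GM controls it measured 23.4 and 29.6 CPM (population 1) and 24.8 and 20.8 CPM (population 2). In DM3 controls it measured 96.8 and 154 CPM (population 1) and 50.2 and 30.7 CPM (population 2). Every control DM3 library lies above every control GM library. In tKO GM it measured 17.8 and 26.03 CPM in clone C1 and 17.8 and 21.2 in clone C2. In tKO DM3 it measured 195 and 28.8 CPM in clone C1 and 36.6 and 16.5 in clone C2, so the tKO groups overlap.

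The effect of the knockout was tested with the quasi-likelihood test of edgeR over 807 names, with p-values adjusted by Benjamini-Hochberg, and a difference was called at an adjusted p under 0.05. Of the 4 members tested, 0 passed in GM, where 1.12% of all names tested were called, and 0 passed in DM3, where 0.867% were called. At an unadjusted edgeR p under 0.05 the count of members was also 0 in both media, beside 65 of the 807 names in GM and 90 in DM3. DESeq2 called 0 of the 4, beside 20 and 19 of all names. In GM the log2 fold change of tKO against control was -0.24 (SE 0.37, edgeR adjusted p = 0.966) for miR-26a-5p and 0.03 (SE 0.46, edgeR adjusted p = 0.991) for miR-26b-5p. The 95% intervals were -1.02 to 0.54 and -0.93 to 0.99. Both reach decreases of close to 1 on the log2 scale, and only that of miR-26b-5p reaches increases of that size. In GM the passengers had log2 fold changes of -0.19 (SE 0.48) for miR-26a-2-3p and -0.37 (SE 0.55) for miR-26b-3p. In DM3 the log2 fold change was 0.37 (SE 0.37) for miR-26a-5p, with an interval of -0.41 to 1.16, and 0.56 (SE 0.46) for miR-26b-5p, with an interval of -0.41 to 1.52. Without control population 2 DM3 replicate 2 these values were 0.86 and 1.18, and without tKO clone C2 DM3 replicate 2 they were 0.15 and 0.32, none called by edgeR. miR-26a-2-3p had a log2 fold change of 0.81 (SE 0.50; 1.76 without that control library) in DM3 and miR-26b-3p of -0.58 (SE 0.58). The median over all names tested was 0.11 in GM and 0.09 in DM3. Without the library that stands apart, 53 names were called in DM3 in place of 7, and none of the 4 members (edgeR adjusted p of miR-26b-3p = 0.0572 at a log2 fold change of -1.44). On sequences without a mismatch the direction of miR-26b-3p in DM3 turned, with 0.45, and on the exact mature sequence it was 0.24.

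With TMM scaling of all listed reads, differentiation of control cells was the contrast with the largest values for the guides. Scaled by total counts, tKO against control in DM3 had larger ones, 0.38 for miR-26a-5p and 0.57 for miR-26b-5p. The log2 fold change of DM3 against GM in control was -0.65 (SE 0.37, edgeR adjusted p = 0.211) for miR-26a-5p, -0.87 (SE 0.46, edgeR adjusted p = 0.174) for miR-26b-5p and -0.60 (SE 0.49, edgeR adjusted p = 0.397) for miR-26a-2-3p. For miR-26b-3p it was 1.31 (SE 0.56, edgeR adjusted p = 0.0908). Scaled by total counts the values were -0.31, -0.52 and -0.31 for miR-26a-5p, miR-26b-5p and miR-26a-2-3p, none called by edgeR. That scaling moved the median over all names from 0.02 to 0.39 and the calls from 128 higher and 95 lower to 153 and 62. Short and mismatched reads were more frequent in these DM3 libraries, as given above. On sequences without a mismatch, miR-26a-5p, miR-26b-5p and miR-26a-2-3p had -0.38, -0.68 and -0.49. On those of 18 to 25 nt without a mismatch they had -0.30, -0.62 and -0.26, and edgeR called none of them in either set. Why the values moved was not tested. With TMM scaling none of the 4 passed, against 27.6% of all names tested, and miR-26b-3p alone had an unadjusted p under 0.05, as did 314 of the 807 names. The 4 control DM3 libraries of miR-26b-3p lay above its 4 GM libraries in CPM of listed reads, but not on TMM-scaled CPM. On that scale its lowest control DM3 value was 32.4 and its highest control GM value 33.2. There 16.9% of all names tested had all 4 DM3 libraries above the 4 GM libraries. The log2 fold changes rest in part on 1 library. Without control population 2 DM3 replicate 2, that of miR-26b-5p was -1.47 (edgeR adjusted p = 0.0353). That of miR-26a-2-3p was then -1.54 (edgeR adjusted p = 0.0351), and both were called. Without that library miR-26a-5p had -1.10 and was not called. On reads of the exact mature sequence alone, the log2 fold change of miR-26a-5p was 0.0046 (edgeR adjusted p = 0.987). That of miR-26a-2-3p was then 0.064 (edgeR adjusted p = 0.942), the opposite direction, and that of miR-26b-5p -0.50 (edgeR adjusted p = 0.373). For miR-26b-5p the exact sequence is the 21-base form, listed with 16906 reads, and leaves out the commoner 22-base form, listed with 54606. With the 2 lines of each genotype as blocks, an alternative chosen after the data were seen, miR-26a-5p had -0.72 (edgeR adjusted p = 0.0892), and with the replicate number as a further block -0.76 (edgeR adjusted p = 0.0338), which was called. miR-26b-3p was called without the tKO library that stands apart (1.23, edgeR adjusted p = 0.0245), with scaling by total counts (1.74, edgeR adjusted p = 0.0499) and in a fit of only the 2 control groups (1.39, edgeR adjusted p = 0.0290). Without control population 1 DM3 replicate 2 it had 0.64 (edgeR adjusted p = 0.483).

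The lines, which are the same in both media, can be followed from GM to DM3 on TMM-scaled CPM. In control, the mean log2(CPM + 1) of miR-26a-5p over 2 replicates changed by -1.08 in population 1 and by -0.44 in population 2, and that of miR-26b-5p by -0.97 and -0.87. In tKO, miR-26a-5p changed by -0.14 in clone C1 and -0.04 in clone C2, and miR-26b-5p by -0.45 and -0.29. The gaps between replicates of a line ran from 0.13 to 1.08 for miR-26a-5p. The edgeR log2 fold change of DM3 against GM in tKO was -0.04 (SE 0.37) for miR-26a-5p, -0.34 (SE 0.46) for miR-26b-5p, 0.41 (SE 0.49) for miR-26a-2-3p and 1.09 (SE 0.58) for miR-26b-3p. None of the 4 passed, against 19.7% of all names tested. Without the library that stands apart, the value was 0.20 for miR-26a-5p (edgeR adjusted p = 0.761), -0.10 for miR-26b-5p and 0.18 for miR-26b-3p. Without tKO clone C2 DM3 replicate 2 it was -0.67 for miR-26b-5p and 0.23 for miR-26a-2-3p, none called. Scaled by total counts, the median over all names in tKO moved from 0.01 to 0.24 and the calls from 92 higher and 67 lower to 109 and 43.

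The test of whether the 2 genotypes respond differently is the interaction, tKO response minus control response. Its log2 values were 0.61 (SE 0.53) for miR-26a-5p, 0.53 (SE 0.65) for miR-26b-5p, 1.01 (SE 0.69) for miR-26a-2-3p and -0.21 (SE 0.80) for miR-26b-3p. Without control population 2 DM3 replicate 2 the first 3 were 1.08, 1.13 and 1.95, and without tKO clone C2 DM3 replicate 2 those of the guides were 0.37 and 0.26. Without the library that stands apart, miR-26b-3p had -1.05. None passed in any of these fits, and 0% of the 807 names were called in the interaction by edgeR, with 37 names at an unadjusted p under 0.05. So the lower values of the guides in control DM3 are not shown to differ from the response in tKO.

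**Figure D2:**
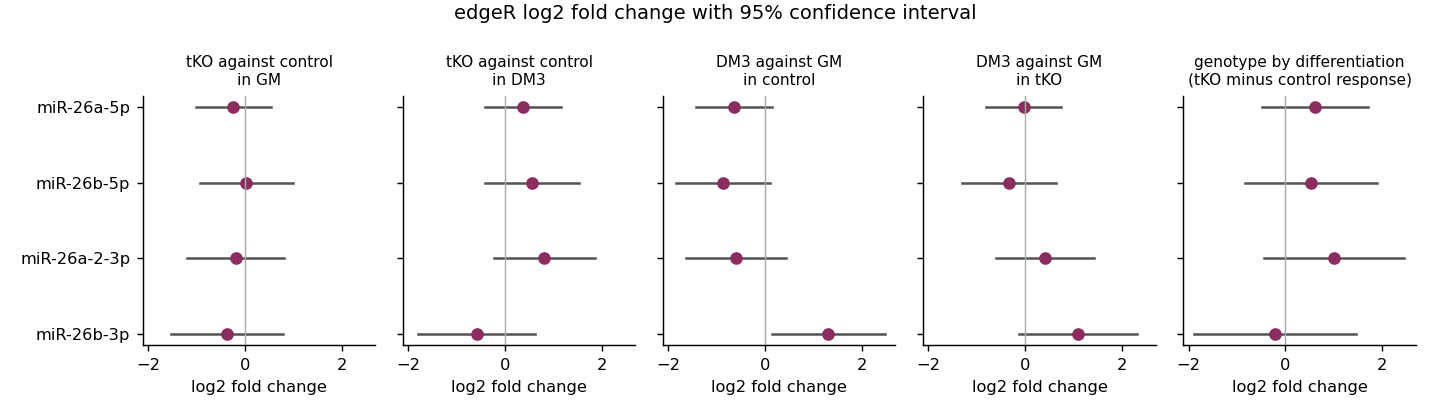
edgeR log2 fold changes (points) with 95% confidence intervals (bars) of the 4 tested members in the 5 contrasts, over 16 libraries. The intervals of the guides include 0 in each panel, and that of miR-26b-3p lies above 0 in control DM3 against GM.

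Depth moved with the level of the guides. In each line and medium, replicate 2 was the deeper library (8 of 8), and the deeper library had the higher CPM of miR-26a-5p in 7 of 8 and of miR-26b-5p in 6 of 8. For the passengers the count was 6 of 8 for miR-26a-2-3p, 4 of 8 for miR-26b-3p and 2 of 8 for miR-26a-1-3p. The part of depth in the levels was not tested.

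The reads listed under miR-26b-3p were mostly not the mature arm in DM3. Reads at the mature start are here those with no mismatch, at least 16 nt long and within 3 bases of the mature first base. They made up 70.1% of the miR-26b-3p reads in control GM, 52.6% in tKO GM, 10.8% in control DM3 and 32.2% in tKO DM3. For miR-26a-2-3p the shares were 74.3%, 64.5%, 71.8% and 76.4%, and for miR-26a-5p they were 92.7% to 93.0%. The commonest of the other reads were 2 short sequences at chr1:74394379-74394392 and one base further in, which run past the end of the arm and differ from the hairpin at 1 base, in capitals.
14 nt: ctcggggCccggtg
13 nt: tcggggCccggtg
They had 266 and 195 reads and together made 42.6% of all reads listed under miR-26b-3p. Their summed level lay between 3.16 and 5.08 CPM in GM controls and between 0 and 18.4 CPM in GM tKO libraries. In DM3 it lay between 18.05 and 125 CPM in controls and between 5.503 and 168 CPM in tKO libraries. The labels give a gel selection for inserts of 15 to 50 nt, so these reads are shorter than that window. The 2 libraries with the highest share of miR-6236 and miR-6240 reads, 35.4% and 17.1%, also had the highest miR-26b-3p, 195 and 154 CPM; the part of those reads in the result was not tested.

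Counted at the mature start alone, miR-26b-3p had the opposite direction. It measured 13.7, 19.6, 18.97 and 15.3 CPM in GM controls and 0, 3.24, 7.54 and 8.02 CPM in DM3 controls, in the order population 1 replicates 1 and 2, then population 2. These control DM3 values rest on 0, 3, 3 and 24 reads. In the library at 0 the limit that a count of 0 allows is 12.1 CPM. In tKO it measured 11.3, 7.15, 13.3 and 11.7 CPM in GM and 8.87, 7.999, 12.2 and 7.48 CPM in DM3. On sequences without a mismatch, the log2 fold change of DM3 against GM in control was -1.57 (edgeR adjusted p = 0.0120), so that miR-26b-3p fell, and in tKO it was -0.43 (edgeR adjusted p = 0.485). On the exact mature sequence alone the control value was -1.30 (edgeR adjusted p = 0.0659) and was not called. The interaction was 1.14 (edgeR adjusted p = 0.804) on sequences without a mismatch and 0.67 (edgeR adjusted p = 0.970) on the exact mature sequence.

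**Figure D3:**
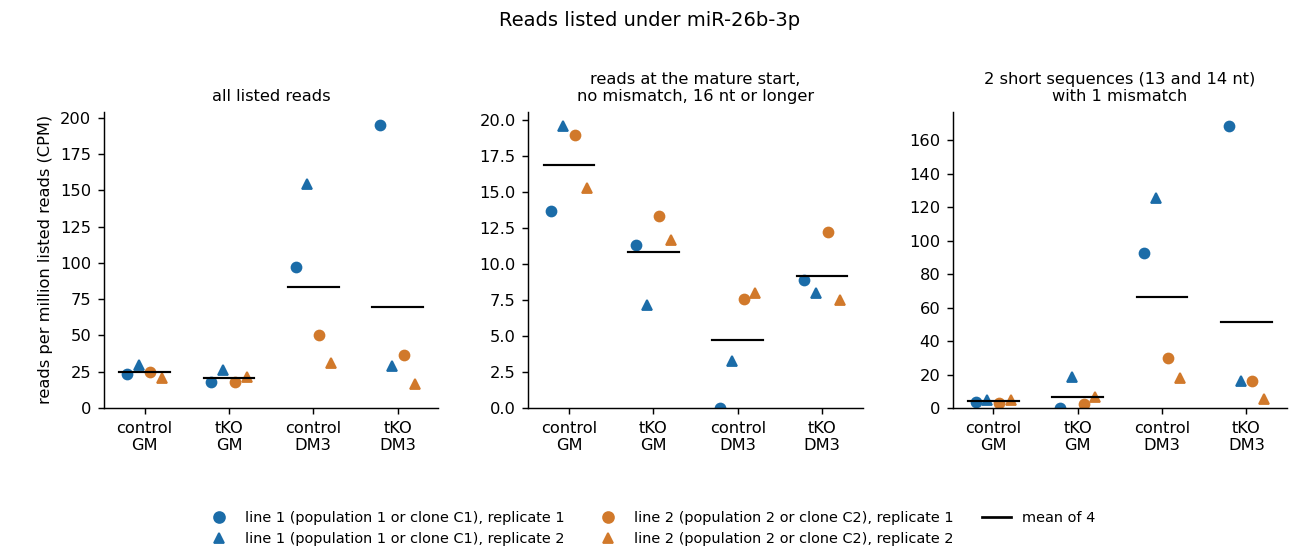
Level in CPM of the reads listed under miR-26b-3p in each library: all listed reads, reads at the mature start, and the 2 short sequences of 13 and 14 nt. The mean over all reads is higher in control DM3 (83.0) than in control GM (24.6), whereas at the mature start it is lower (4.70 against 16.9).

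The ratio of the arms moved with these reads. The log2 ratio of 5p to 3p reads was 8.89 ± 0.18 in control GM and 7.71 ± 0.97 in control DM3 (SD, n = 4 each), and the groups did not overlap. The difference was -1.18 (two-sided exact permutation test, p = 0.0286, adjusted p = 0.190 over 20 tests). On reads at the mature starts the difference was 1.01, the opposite direction (exact permutation test, adjusted p = 0.190). That value rests on few passenger reads. In control population 1 DM3 replicate 1 the ratio stood on 1 read of miR-26a-2-3p, with 0 of miR-26b-3p and 0 of miR-26a-1-3p. In tKO the log2 ratio was 8.94 ± 0.40 in GM and 8.10 ± 1.21 in DM3 (SD, n = 4 each), a difference of -0.83 that did not pass (exact permutation test, p = 0.229, adjusted p = 0.416). On reads at the mature starts the tKO difference was -0.11, and over all listed reads without the library that stands apart it was -0.25. At the mature starts that library held 1 read of miR-26a-2-3p, 1 of miR-26b-3p and 0 of miR-26a-1-3p.

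Reads of the loop were listed for Mir26a-2. The 16-base loop between the arms was listed with 86 reads in 12 libraries, and the loop with the 3' arm still attached, 38 bases, with 19 reads in 9 libraries. Both were listed under miR-26a-2-3p. The sequences are shown because their ends meet the ends of the mature arms, with the arm in capitals.
loop: gtgtccgtccatgagg
loop with 3p arm: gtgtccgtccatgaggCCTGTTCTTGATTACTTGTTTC
The loop had 29 reads in control GM, 27 in tKO GM, 5 in control DM3 and 25 in tKO DM3. The whole loops of Mir26a-1 and Mir26b had 0 reads. These counts are too low for a comparison of groups.

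How the names divide the guides can be checked at base 11, where miR-26a-5p has C and miR-26b-5p has U. Of the reads listed under miR-26b-5p, 3.59% carried the base of miR-26a-5p, and 0.173% of those listed under miR-26a-5p carried the base of miR-26b-5p. With the guides told apart by base 11, an alternative chosen after the data were seen, none of the 5 contrasts called either guide with edgeR. The deposited tables also split miR-26a-5p itself: 787910 of its reads stand under miR-26a-5p, 313450 under miR-26a-1-5p and 92 under miR-26a-2-5p. Since both hairpins give the same arm, that split does not measure the hairpins, and the names were merged.

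The 5' end, which sets the seed, was nearly uniform. Between 99.7% and 99.97% of miR-26a-5p reads started at the mature first base in each library. No contrast of this share passed (two-sided exact permutation test, smallest p = 0.0857, adjusted p = 0.190 over 20 tests).

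The 3' ends varied more, and the members differed in them. The reads are written as whole reads, with bases that the hairpin does not hold in capitals, because they show which ends carry the counts; they are the 7 commonest of miR-26a-5p and the 3 commonest of miR-26b-5p.
miR-26a-5p, 744599 reads: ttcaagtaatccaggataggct
miR-26a-5p, 110979 reads: ttcaagtaatccaggataggcC
miR-26a-5p, 65563 reads: ttcaagtaatccaggataggcA
miR-26a-5p, 21817 reads: ttcaagtaatccaggataggcG
miR-26a-5p, 15184 reads: ttcaagtaatccaggataggc
miR-26a-5p, 13665 reads: ttcaagtaatccaggataggctAT
miR-26a-5p, 12533 reads: ttcaagtaatccaggataggctT
miR-26b-5p, 52601 reads: ttcaagtaattcaggataggtt
miR-26b-5p, 7499 reads: ttcaagtaattcaggataggt
miR-26b-5p, 7088 reads: ttcaagtaattcaggataggtC
The commonest miR-26b-5p read was thus 22 nt long, 1 base longer than its 21-base RefSeq sequence, and that base is in the hairpin. Of the miR-26b-5p reads placed on the hairpin, 63.8% matched it through base 22 and ended there, and 9.09% did so at base 21. Of those of miR-26a-5p, 72.3% matched it through base 22 and ended there, and 1.47% did so at base 21. Reads whose base at position 22 is not that of the hairpin are outside these shares.

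**Figure D4:**
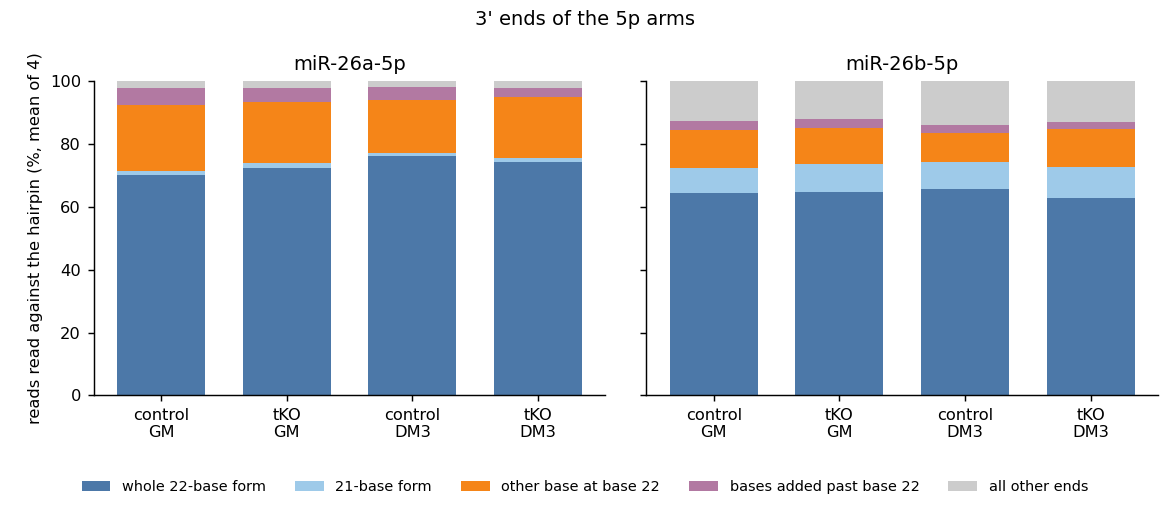
Share of reads of miR-26a-5p and miR-26b-5p by 3' end, read against the hairpin, as the mean of 4 libraries per group. The untailed 22-base form makes up 70.1% to 76.0% of miR-26a-5p and 62.9% to 65.8% of miR-26b-5p, and the 21-base form is the wider band in miR-26b-5p.

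The deposited tail columns count a read as tailed when 1 or 2 bases follow the listed sequence. For miR-26a-5p they also count a base of the hairpin: the 20-base form has 15184 reads with a C tail, and C is the next base of the arm. The 21-base form has 0 untailed reads and 198359 reads with 1 further base, of which 110979 have C in place of the final U. That change was not particular to miR-26: among 63 other microRNAs that end in U and have at least 1000 such reads, the median share with C at the last base was 11.6% (quartiles 11.05% and 11.97%), and among the 22-base reads of miR-26a-5p it was 11.8%. In 21 of the 63 the share was above that of miR-26a-5p.

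By those columns, miR-26a-5p had fewer tailed reads in control DM3 than in control GM. Its tailed share was 31.9% and 29.1% in population 1 and 27.1% and 26.4% in population 2 in GM, and 22.5% and 21.4% in population 1 and 23.4% and 24.2% in population 2 in DM3. The groups did not overlap, and the difference was -5.74 percentage points (28.6% ± 2.5 against 22.9% ± 1.2, SD, n = 4 each; two-sided exact permutation test, p = 0.0286, adjusted p = 0.190 over 20 tests). This is the smallest p the test allows, and it did not pass the adjustment. The higher shares of short and mismatched reads in control DM3 moved with it, and their part was not tested. Read against the hairpin, an alternative chosen after the data were seen, the difference was -5.62. Most of that difference lay at base 22. Among reads placed on the hairpin, those with another base there averaged 20.9975% in control GM and 16.9467% in control DM3. Reads with bases added past base 22 averaged 5.58% and 4.03%. The share of 22-base reads ending in G was 8.10% and 5.92% in population 1 GM and 1.41% and 1.19% in population 2 GM. In control DM3 it was 1.34% to 1.53%. In tKO the tailed share was 25.9% ± 1.1 in GM and 24.6% ± 0.4 in DM3 (SD, n = 4 each; exact permutation test, p = 0.0571, adjusted p = 0.190). Over 93 other names with a mean of at least 1000 CPM, the tailed share in control was also lower in DM3 in 81, with a median difference of -3.71 points (quartiles -5.11 and -2.02), and 20 of the 93 fell below the difference of miR-26a-5p. For tKO against control, the share of miR-26a-5p differed by -2.66 points in GM (exact permutation test, p = 0.0857, adjusted p = 0.190), where 86 of the 93 were also lower. In DM3 it differed by 1.70 points (exact permutation test, p = 0.0571, adjusted p = 0.190), where 40 of the 93 were lower.

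miR-26b-5p had a smaller tailed share. It was 18.8% ± 2.3 in control GM, 15.1% ± 0.9 in control DM3, 18.3% ± 0.7 in tKO GM and 16.6% ± 0.6 in tKO DM3 (SD, n = 4 each). For tKO against control it differed by -0.51 points in GM (exact permutation test, p = 0.686, adjusted p = 0.762). In DM3 it differed by 1.46 points (exact permutation test, p = 0.0857, adjusted p = 0.190). The difference of DM3 against GM was -3.64 points in control (exact permutation test, p = 0.0571, adjusted p = 0.190) and -1.67 points in tKO, where the groups did not overlap (exact permutation test, p = 0.0286, adjusted p = 0.190). Among the 93 other names, 48 fell below the control difference of miR-26b-5p. In tKO 71 of the 93 were lower in DM3, with a median difference of -1.39 points, and 43 fell below that of miR-26b-5p. Read against the hairpin, the tKO value was 0.32, the opposite direction. Without the library that stands apart, in which 105 reads of miR-26b-5p could be placed, it was -0.66.

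**Figure D5:**
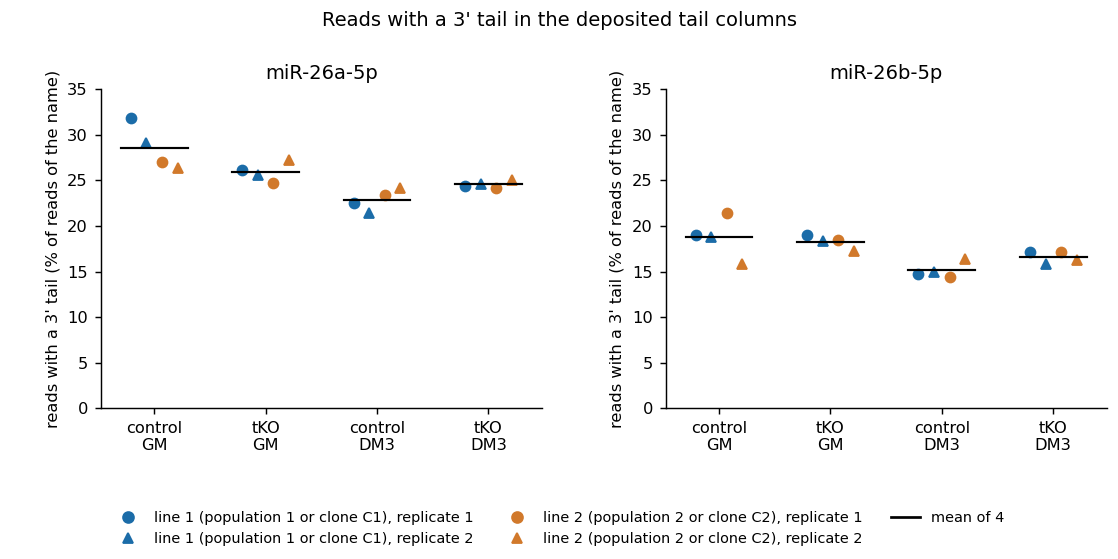
Share of reads of each 5p guide that carry a 3' tail in the deposited tail columns (percent of the reads of the name), by library. All control DM3 libraries of miR-26a-5p, 21.4% to 24.2%, lie below all control GM libraries, 26.4% to 31.9%.

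Past base 22 the added bases of miR-26a-5p were mostly A, U and AU, which the tables write as AT. Reads with bases added past base 22 made up 5.58% ± 0.45 of miR-26a-5p in control GM, 4.47% ± 1.47 in tKO GM, 4.03% ± 0.41 in control DM3 and 2.88% ± 0.47 in tKO DM3 (SD, n = 4 each), given without a test. The next values are from the deposited tail columns, which also count bases that follow shorter listed forms. There the AU tail stood out in miR-26a-5p by its share of the 2-base tails: it made 53.3% of them, above each of the 93 other names, whose median was 12.9%. As a share of all reads in those columns it was 1.45% in miR-26a-5p, where 15 of the 93 were higher, and 0.106% in miR-26b-5p. Among reads placed on the hairpin, AU added past base 22 made 1.33% of miR-26a-5p and 0.0121% of miR-26b-5p. A single added U made 1.22% of miR-26a-5p reads and 1.14% of miR-26b-5p reads placed on the hairpin.

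The other names whose pattern over the 16 libraries was most like that of miR-26a-5p were miR-196b-5p, miR-22-3p, miR-151-5p, miR-27b-5p and miR-128-3p. Likeness is the root-mean-square difference of log2(TMM-scaled CPM + 1) after centring each name on its mean, over 16 libraries and 245 names with a mean of at least 100 CPM. It was 0.245 for miR-196b-5p and 0.299 for miR-128-3p, against a median of 0.788, and 0.315 for miR-26b-5p; 5 names were closer to miR-26a-5p than miR-26b-5p was. For miR-26b-5p the closest were let-7g-5p at 0.217, then miR-16-5p, miR-185-5p, miR-101b-3p and miR-21c-5p at 0.274 to 0.314, against a median of 0.899. These values share the scaling of the libraries and carry no test.

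A short list of other microRNAs known to target Ezh2, not a complete one, was also followed. Of miR-101a-3p, miR-101b-3p and miR-214-3p, 3 of 3 were tested and 0 passed in each of the 5 contrasts (edgeR). In control DM3 against GM, miR-101b-3p had a log2 fold change of -0.82 (SE 0.44), miR-101a-3p 0.31 (SE 0.55) and miR-214-3p, which stands in both lists, 0.07 (SE 0.38). Of 14 microRNAs known to act in myoblast differentiation, all tested, 4 rose and 0 fell in control DM3, where 15.9% of all names tested rose and 11.8% fell, and 3 rose and 0 fell in tKO DM3, where 11.4% rose and 8.3% fell (edgeR). The 4 in control were miR-206-3p, which was among the deleted microRNAs, with a log2 fold change of 4.57 (SE 0.78), miR-1a-3p with 3.92 (SE 0.60), miR-133a-3p with 6.99 (SE 0.73) and miR-133b-3p with 6.66 (SE 0.73). In tKO, miR-133a-3p had 6.29 (SE 0.73) and miR-133b-3p 6.52 (SE 0.78). The third in tKO, named after its value was seen, was miR-27b-3p with 1.38 (SE 0.40). For tKO against control, miR-206-3p fell in GM, where 0.62% of all names fell and 0.496% rose. In DM3 miR-206-3p and miR-1a-3p fell, where 0.496% of all names fell and 0.372% rose, and 0 of the 14 rose in either medium. The median log2 fold change of the list was 0.67 in control and 0.30 in tKO, beside 0.02 and 0.01 over all names tested, and 0 of the 14 passed in the interaction.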

How the data were processed

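The 16 deposited tables were made with unitas and its mouse option, per the file headers, and the submitters' processing notes name cutadapt 1.15, STAR 2.5.4 and mm10. The authors deposited expected counts per sequence and microRNA name, with no normalization; a read matching several sequences enters as a fraction. Expected counts were summed per name and library (236 of 2510 names merged, 2274 left) and rounded for tests. edgeR 4.0.16 in R 4.3.3 (TMM, filterByExpr, robust quasi-likelihood, 4 group coefficients over 16 libraries) tested 807 names, with Benjamini-Hochberg adjustment at 0.05; DESeq2 1.42.0 was an alternative. The code was first tested on simulated data. CPM are scaled to 1e6 listed reads. Ratios and shares were tested by exact permutation (70 assignments, 20 tests). Alternatives were other scalings, filters, sequence sets, blocks and each library left out. Likeness and list rules stand in the text; up to 4 names of a list are named, in order. Members, lists and tests were chosen with earlier results of these data known.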

Additional observations from a re-analysis of the deposited data

Results flagged for a closer look

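In 40 groups of 4 libraries (10 values in 4 groups), 3 libraries lay apart from the other 3 by Dixon's test; chance flags about 1 in 20 groups, and no explanation was tested. miR-26b-5p measured 2397 CPM in control population 2 DM3 replicate 2, against 984 to 1217 CPM in the other control DM3 libraries. miR-26b-3p measured 195 CPM in tKO clone C1 DM3 replicate 1, against 16.5 to 36.6 CPM in the other tKO DM3 libraries; that library is the least deep, with 22 reads of this name. The share of miR-26a-5p reads that start at the mature 5' end was 99.77% in tKO clone C2 GM replicate 2, against 99.91% to 99.93% in the other tKO GM libraries.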

How the results depend on the processing

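Of 804 values under an alternative, 757 kept their direction and their side of the threshold, and 118 of 144 numbers of names called stayed within 1.5 times that of the fit reported. The numbers called were 9 and 7 for tKO against control in GM and DM3, 223 and 159 for DM3 against GM in control and tKO, and 0 for the interaction. Without a filter on low counts, 15 names were called in GM and 14 in DM3 for tKO against control. DESeq2 called 20 and 19, sequences without a mismatch 18 and 13, and sequences of 18 to 25 nt without a mismatch 15 and 20. The exact mature sequence alone gave 13 in DM3, 86 and 89 for DM3 against GM in control and tKO, and 1 in the interaction. The 18 to 25 nt set called 136 for DM3 against GM in control. Fits on only the groups compared called 4 for tKO against control in DM3 and 82 for DM3 against GM in tKO.

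With the replicate block and the line block together, 27 names were called in GM and 21 in DM3 for tKO against control, and with the line block alone 23 and 18; these fits leave the spread between lines out of the genotype test. miR-26a-5p in control DM3 against GM had -0.76 with both blocks (edgeR adjusted p = 0.0338, called), -0.72 with the line block and -0.68 with the replicate block, both not called. The blocks changed no other call of a member. The labels do not say what equal replicate numbers share: the mean correlation between libraries of different groups was 0.101 for the same number (lowest -0.46), -0.0954 for different numbers and 0.147 for the same line in the other medium (lowest -0.23).

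The sequence set turned the direction of miR-26b-3p. In the order no mismatch, 18 to 25 nt and exact sequence, its log2 fold change was -1.57, -1.53 and -1.30 for control DM3 against GM, -0.43, -0.41 and -0.63 for tKO DM3 against GM, 0.45, 0.51 and 0.24 for tKO against control in DM3, and 1.14, 1.11 and 0.67 for the interaction. Values of other members also turned. miR-26a-5p in tKO DM3 against GM had 0.13, 0.18 and 0.20 on the same sets, 0.23 with scaling by total counts and 0.023 on only the groups compared. On the exact sequence it had 0.017 for tKO against control in GM and, for control DM3 against GM, 0.0046 in place of -0.65, where miR-26a-2-3p had 0.064 in place of -0.60. miR-26b-5p in tKO against control in GM had -0.012 without a filter. The log2 ratio of 5p to 3p reads was 1.06 without mismatches and 1.01 at the mature starts for control DM3 against GM, and -0.84 and -0.85 for tKO against control in DM3. The tailed share of miR-26b-5p in tKO DM3 against GM was 0.32 read against the hairpin, and -0.66 there without tKO clone C1 DM3 replicate 1. The cause was not tested beyond the choice of sequences.

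Leaving out each library in turn gave 5 to 16 names called for tKO against control in GM, 5 to 53 in DM3, 159 to 263 and 109 to 154 for DM3 against GM in control and tKO, and 0 to 1 in the interaction. For tKO against control in GM it gave -0.19 to 0.26 for miR-26b-5p, -0.40 to 0.031 for miR-26a-2-3p, -0.085 to 0.18 for the ratio of the arms, -0.39 to -0.067 for miR-26a-5p and -1.48 to 0.37 points for the tailed share of miR-26b-5p. For tKO against control in DM3 it gave 0.15 to 0.86 for miR-26a-5p, 0.32 to 1.18 for miR-26b-5p and 0.61 to 1.76 for miR-26a-2-3p. It gave -1.44 to 0.067 for miR-26b-3p in tKO against control in DM3, and in the interaction 0.37 to 1.08 for miR-26a-5p, 0.26 to 1.13 for miR-26b-5p, 0.80 to 1.95 for miR-26a-2-3p and -1.05 to 0.44 for miR-26b-3p. For tKO DM3 against GM it gave -0.33 to 0.20 for miR-26a-5p, -0.67 to -0.10 for miR-26b-5p, 0.23 to 0.61 for miR-26a-2-3p and 0.18 to 1.39 for miR-26b-3p. For control DM3 against GM it gave -1.10 to -0.45 for miR-26a-5p, -1.47 to -0.70 for miR-26b-5p, 0.64 to 1.47 for miR-26b-3p and -1.54 to -0.39 for miR-26a-2-3p.

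Depth limits the passengers: 3 libraries held under 10 reads of miR-26a-2-3p and 14 under 10 of miR-26a-1-3p. Arms of 4 libraries cannot pass the adjustment over 20 permutation tests unless many contrasts reach the smallest p.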
